A study of Mus musculus with 6 samples.

Results

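Strand exchange is the step of meiotic recombination in which a broken chromosome finds its homologue and invades it, and 9 genes that carry it out were followed among the 54532 genes of the deposited expression table of mouse ovaries at 16.5 dpc (days post-coitus). They were chosen by name, as the recombinases and their cofactors: *Dmc1*, *Rad51c*, *Rad54l*, *Psmc3ip* (*Hop2*), *Mnd1*, *Meiob*, *Spata22*, *Brca2* and *Hsf2bp*. All 9 were found by their symbol, and all 9 passed the minimum level for testing. RNA was sequenced from whole ovaries of C57BL/6 mice in 3 libraries of wild-type ovaries (Ctrl) and 3 of ovaries with a conditional knockout of *Srsf1* (cKO), a splicing factor. In cKO mice, the *Stra8-GFPCre* transgene deletes floxed exons of *Srsf1* in germ cells from the onset of meiosis, whereas the somatic cells of the ovary keep the gene. The methods call the libraries biological replicates, and the number of animals or ovaries behind each library was not found in the labels or methods. The study made the libraries to learn how loss of SRSF1 bears on primordial follicle formation, which it followed in newborn mice. The comparison below asks how expression of the strand exchange genes differed at 16.5 dpc.

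In meiotic prophase I, programmed DNA breaks are resected to single strands, which are first covered by RPA. MEIOB and SPATA22 form a complex that joins RPA on these strands, and BRCA2, brought to meiotic breaks by HSF2BP, helps to load the recombinase DMC1. The heterodimer of PSMC3IP and MND1 then stimulates the filament of DMC1 to invade the homologous duplex. RAD51C, which acts with BRCA2 in homologous recombination, and RAD54L, a DNA translocase, serve recombination in dividing somatic cells as well as in germ cells.

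*Psmc3ip* and *Mnd1*, whose products work as a pair, were the 2 members that were lower in cKO at an unadjusted p below 0.05. This is the limit of the study, used here with limma as described below. At this limit 1.75% of all genes tested were lower in cKO, and 0 genes passed after adjustment. *Mnd1* was just inside the limit (limma, unadjusted p = 0.0499). The windows around the start sites of *Psmc3ip* and *Mnd1* are shown with those of 2 other members. These are *Dmc1*, the recombinase on which the pair acts, and *Hsf2bp*, the member with the largest positive log2 fold change. Each window runs from 250 bases before to 50 bases after the start site in RefSeq (GRCm38.p6), 5′ to 3′ on the strand of the gene. They lie at chr11:101095386-101095685, chr3:84155737-84156036, chr15:79605060-79605359 and chr17:32034459-32034758, all on the minus strand. Capitals mark matches on either strand to any of 7 letter patterns: the GC box CCGCCC, the CCAAT box CCAAT, the E2F core TTCCCGC, the ETS core CCGGAAG, the E-box CACGTG, the CRE TGACGTCA, and CNCCTCAG.
Psmc3ip: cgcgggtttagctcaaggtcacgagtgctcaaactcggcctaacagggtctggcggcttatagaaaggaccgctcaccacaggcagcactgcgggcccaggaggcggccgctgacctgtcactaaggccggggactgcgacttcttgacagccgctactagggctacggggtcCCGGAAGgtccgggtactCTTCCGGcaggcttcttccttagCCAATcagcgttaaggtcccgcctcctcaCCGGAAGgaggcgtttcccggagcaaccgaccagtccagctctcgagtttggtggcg
Mnd1: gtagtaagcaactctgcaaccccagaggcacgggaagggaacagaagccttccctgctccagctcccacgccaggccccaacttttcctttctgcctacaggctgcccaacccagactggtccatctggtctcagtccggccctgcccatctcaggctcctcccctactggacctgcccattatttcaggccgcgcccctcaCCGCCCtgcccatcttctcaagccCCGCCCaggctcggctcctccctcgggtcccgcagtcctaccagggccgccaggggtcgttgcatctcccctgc
Dmc1: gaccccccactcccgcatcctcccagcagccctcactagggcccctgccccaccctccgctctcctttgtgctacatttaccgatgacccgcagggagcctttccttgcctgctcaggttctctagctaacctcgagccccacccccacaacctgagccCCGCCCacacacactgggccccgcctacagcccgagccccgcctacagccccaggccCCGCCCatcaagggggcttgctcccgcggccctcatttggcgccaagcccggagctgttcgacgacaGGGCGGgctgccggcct
Hsf2bp: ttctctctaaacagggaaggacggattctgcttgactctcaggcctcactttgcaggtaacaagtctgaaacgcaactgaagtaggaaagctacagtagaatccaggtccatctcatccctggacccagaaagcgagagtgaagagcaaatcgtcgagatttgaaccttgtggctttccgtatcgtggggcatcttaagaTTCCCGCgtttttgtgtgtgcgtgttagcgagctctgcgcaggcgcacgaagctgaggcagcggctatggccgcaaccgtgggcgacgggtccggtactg
The window of *Psmc3ip* held 3 matches to the ETS core and 1 to the CCAAT box, and that of *Mnd1* held 2 matches to the GC box, so the pair shared none of the 7 patterns. *Dmc1* had 3 matches to the GC box, and *Hsf2bp* had 1 to the E2F core. A sequence was found for 8 of the 9 members, all but *Meiob*. The E2F core occurred in 4 of the 8 windows (*Brca2*, *Hsf2bp*, *Rad51c* and *Spata22*), against 4.6% of the 32851 promoter windows of all genes, and in *Rad51c* it overlapped a GC box. The GC box occurred in 4 of the 8 (35.7% of all windows), the CCAAT box in 3 (37.4%), the ETS core in 2 (8.86%) and the CRE in 1, *Brca2* (1.79%). The E-box and CNCCTCAG had no match in the 8 windows, against 7.15% and 7.94% of all windows. The 8 windows held between 53.7% and 69% G and C, each above the median of 52.7% over all windows, so the shares do not compare windows of like composition. These matches describe letters in the windows and were not tested.

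The depth of the libraries was even, at between 14212164 and 16784241 reads on genes. Expression is given as FPKM, the reads on a gene scaled to its length and to the size of the library, so that levels of different genes can be compared. *Srsf1* itself was at 71.2 ± 8.61 FPKM in Ctrl (SD, n = 3) and 35.3 ± 2.49 in cKO (SD, n = 3), with no overlap. Germ-cell transcripts differed in level between libraries of the same group. The summed FPKM of 10 germ-cell genes, of which none was at 0 in any library, was 84.2, 170 and 302 in Ctrl 1, 2 and 3, whereas cKO 1, 2 and 3 had 414, 157 and 456. *Ddx4* (*Vasa*), the standard germ-cell marker, was at 13.1, 31.5 and 49.0 FPKM in Ctrl and at 51.9, 20.2 and 55.1 in cKO. Of these 10 genes, 1 passed the limit, *Dazl*, against 4.43% of all genes tested. *Dazl* was higher in cKO (limma, unadjusted p = 0.0345, adjusted p = 0.978), but its groups overlapped, with cKO 2 (56.8 FPKM) below Ctrl 3 (80.0). The call of *Dazl* was lost without Ctrl 1, Ctrl 2, cKO 1 or cKO 3. *Dazl* made up 219 of the 456 FPKM in cKO 3, whereas 4 genes had a negative log2 fold change (*Dnd1*, *Tdrd1*, *Tdrd5* and *Gtsf1*). *Dnd1*, which encodes a germ-cell RNA-binding protein, was highest in Ctrl 1 and lowest in cKO 1. As a mean of centred log2(FPKM + 1), which weights the 10 genes equally, the list was at -0.90, -0.14 and 0.49 in Ctrl 1, 2 and 3, against 0.41, -0.39 and 0.54 in cKO 1, 2 and 3, so that Ctrl 3 lay above cKO 1, unlike in the sums. Pregranulosa genes, a list of 10, summed to between 579 and 668 in Ctrl and between 540 and 800 in cKO, and none passed. In whole ovaries, fewer germ cells and less RNA per germ cell cannot be told apart.

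The members ranged over an order of magnitude in level. Over the 6 libraries, mean FPKM was 34.0 for *Dmc1*, 26.6 for *Meiob*, 13.9 for *Spata22*, 12.8 for *Brca2* and 12.2 for *Hsf2bp*. It was 7.40 for *Psmc3ip*, 6.32 for *Mnd1*, 6.10 for *Rad51c* and 2.98 for *Rad54l*. *Dmc1* was above *Meiob*, *Meiob* above *Spata22*, and *Rad51c* above *Rad54l* in 6 of 6 libraries. The order depended on the group, since in Ctrl alone the mean of *Psmc3ip* (9.75 FPKM) was above those of *Brca2* (9.12) and *Hsf2bp* (8.20). It was not fixed among neighbours in the middle: *Spata22* was above *Brca2* in 4 of 6 libraries, *Brca2* above *Hsf2bp* in 3, *Hsf2bp* above *Psmc3ip* in 4, *Psmc3ip* above *Mnd1* in 5 and *Mnd1* above *Rad51c* in 3. Between 65 reads (*Mnd1*, cKO 1) and 5029 reads (*Brca2*, cKO 1) stood behind each value.

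Expression of the 9 members was compared between cKO and Ctrl with limma on log2(FPKM + 1), two-sided, fitted over the 17180 genes with a mean of at least 0.5 FPKM. Because of the added 1, fold changes of weakly expressed genes come out too small. At an unadjusted p below 0.05, 2 of the 9 members passed, both lower in cKO, and none passed in the higher direction. Over all genes tested, 4.43% passed in either direction, 2.68% higher and 1.75% lower. At a Benjamini-Hochberg adjusted p below 0.05, limma called 0 genes (761 at the unadjusted limit) and so 0 members (0% of genes), and voom on read numbers recovered from the FPKM also called 0 (724 at the unadjusted limit). The median log2 fold change of the members was 0.69, and that of all genes tested was -0.0091. The median of the members moved with single libraries, to 0.20 without Ctrl 1. Leaving out cKO 3 gave 0.36, leaving out cKO 1 gave 0.37 and leaving out cKO 2 gave 1.16. It was 0.15 with the germ-cell covariate described below. Of the 9 members, 6 had a higher and 3 a lower mean in cKO. The groups did not overlap for 1 member, *Psmc3ip*, which was lower in cKO. Over all genes tested, the groups did not overlap for 8.68%, 4.59% higher and 4.1% lower in cKO.

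**Figure D1:**
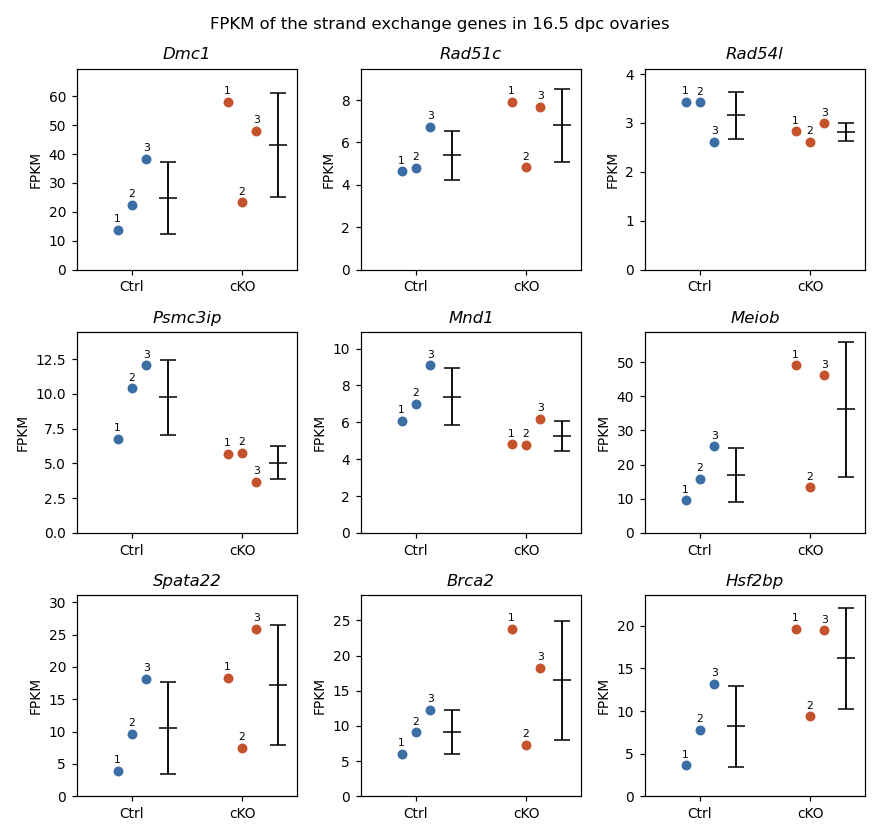
FPKM (vertical axes, from 0) of the 9 genes in each library of Ctrl (blue) and cKO (orange) ovaries. Points are single libraries with their replicate number, and bars beside them give the mean ± SD (n = 3). Only *Psmc3ip* has all 3 cKO libraries below all 3 Ctrl libraries, and cKO 2 is the lowest cKO library for the other 8 genes.

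*Psmc3ip* (ENSMUSG00000019303), which encodes the HOP2 subunit of the heterodimer, lies on the minus strand of chr11:101091823-101095436 of GRCm38. Ctrl 1, 2 and 3 had 6.79, 10.4 and 12.1 FPKM, whereas cKO 1, 2 and 3 had 5.69, 5.77 and 3.68 FPKM. Ctrl 1 was the lowest Ctrl library and cKO 3 the lowest of all. The mean fell from 9.75 ± 2.70 to 5.05 ± 1.18 (SD, n = 3), and the log2 fold change was -0.82 ± 0.24 (standard error). In limma the unadjusted p was 0.0121 and the adjusted p 0.978. In the exact permutation test, two-sided, p was 0.1, the smallest that 3 libraries against 3 allow. The call held with each library left out in turn, where the log2 fold change stayed between -1.03 and -0.64. Of the 1818 exonic bases of *Psmc3ip*, 385 (21.2%) also lie in exons of *Mlx* on the other strand, and neither the labels nor the methods state whether reads were counted by strand. *Mlx*, which encodes a transcription factor, was at a mean of 10.4 FPKM in Ctrl and 11.7 in cKO (log2 fold change 0.15, limma unadjusted p = 0.362).

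*Mnd1* (ENSMUSG00000033752, chr3:84087933-84155786, minus strand), which encodes the partner of PSMC3IP, was at 6.10, 6.99 and 9.09 FPKM in Ctrl 1, 2 and 3. In cKO 1, 2 and 3 it was at 4.80, 4.77 and 6.20. The groups overlapped, because cKO 3 lay just above Ctrl 1, and the means were 7.39 ± 1.54 and 5.26 ± 0.816 (SD, n = 3). The log2 fold change was -0.42 ± 0.17 (standard error; limma, unadjusted p = 0.0499, adjusted p = 0.978), just inside the limit. Its reads were few, between 65 and 139 per library, and counting error alone averaged 9.90% of the value in Ctrl and 11.9% in cKO. The call was lost without Ctrl 2, Ctrl 3, cKO 1 or cKO 2, where unadjusted p was between 0.0902 and 0.16 in limma, and also under 5 other settings given at the end. The direction stayed negative throughout, between -0.53 and -0.27. No other gene overlaps *Mnd1* in the annotation used.

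*Dmc1* (ENSMUSG00000022429, chr15:79561497-79605109, minus strand), the meiosis-specific recombinase, was at 13.8, 22.4 and 38.3 FPKM in Ctrl 1, 2 and 3 and at 58.0, 23.3 and 48.0 in cKO 1, 2 and 3. The lowest cKO library was just above the middle Ctrl library and below Ctrl 3. Means were 24.8 ± 12.4 and 43.1 ± 17.9 (SD, n = 3), and the 95% interval of the log2 fold change, 0.79, ran from -0.26 to 1.84 (limma, unadjusted p = 0.119, adjusted p = 0.978). The miRNA gene *Gm27903* lies within an intron of *Dmc1* on the same strand and shares no exon with it. It was listed at 0 in Ctrl 1 and at 3.43 and 1.82 FPKM in Ctrl 2 and 3. In cKO 1, 2 and 3 it was at 20.5, 5.20 and 6.71 (log2 fold change 2.12, limma unadjusted p = 0.0148, adjusted p = 0.978). The highest value was in cKO 1, and the numbers of reads behind these values are not given here. The RNA had been selected with poly-T beads, and whether these reads came from the miRNA gene or from RNA of *Dmc1* was not tested.

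*Rad51c* (ENSMUSG00000007646, chr11:87376645-87404954, minus strand), which acts in homologous recombination, was at 4.64, 4.80 and 6.74 FPKM in Ctrl and at 7.91, 4.83 and 7.68 in cKO. Its means were 5.39 ± 1.17 and 6.80 ± 1.72 (SD, n = 3) and its groups overlapped. The log2 fold change was 0.28 (interval -0.24 to 0.79, limma unadjusted p = 0.242). *Rad54l* (ENSMUSG00000028702, chr4:116094264-116123690, minus strand), whose product slides along DNA and promotes strand exchange, was the most even member. It was at 3.43, 3.42 and 2.61 FPKM in Ctrl and at 2.83, 2.61 and 2.99 in cKO, for a log2 fold change of -0.12 (interval -0.45 to 0.22, limma unadjusted p = 0.428). Of its exonic bases, 15.4% are shared with exons of *Lrrc41* on the other strand, which had a higher level (means of 22.5 and 23.2 FPKM).

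The genes of the single-strand binding pair varied widely between libraries. *Meiob* (ENSMUSG00000024155, chr17:24804382-24839787, plus strand) was at 9.55, 15.9 and 25.3 FPKM in Ctrl 1, 2 and 3 and at 49.1, 13.4 and 46.2 in cKO 1, 2 and 3. Thus 2 cKO libraries were above every Ctrl library, and cKO 2 was below Ctrl 2. The log2 fold change was 0.95 (interval -0.34 to 2.25, limma unadjusted p = 0.125). *Spata22* (ENSMUSG00000112920, chr11:73329741-73346044, plus strand) was at 3.87, 9.65 and 18.2 FPKM in Ctrl and at 18.3, 7.48 and 25.9 in cKO, a 6.69-fold range from the lowest to the highest library. Its log2 fold change was 0.72 (interval -0.68 to 2.11, limma unadjusted p = 0.264). In the annotation used, 80.5% of its exonic bases are shared with *Gm49340* on the same strand, which is listed at 0 in each library, so how the counting treated these shared bases bears on the level of *Spata22*.

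The products of *Brca2* and *Hsf2bp* bind each other. *Brca2* (ENSMUSG00000041147, chr5:150522630-150570329, plus strand), which helps to load recombinases, was at 6.03, 9.07 and 12.3 FPKM in Ctrl and at 23.8, 7.30 and 18.3 in cKO, for a log2 fold change of 0.69 (interval -0.33 to 1.72, limma unadjusted p = 0.152). *Hsf2bp* (ENSMUSG00000002076, chr17:31944769-32034508, minus strand) was at 3.63, 7.79 and 13.2 FPKM in Ctrl and at 19.7, 9.36 and 19.5 in cKO. Its log2 fold change was 0.98 (interval -0.09 to 2.05, limma unadjusted p = 0.0676). In both genes cKO 2 fell among the Ctrl libraries, below Ctrl 2 in *Brca2* and above it in *Hsf2bp*. Exons of *Hsf2bp* share 54 bases with *Rrp1b* and those of *Brca2* share 41 bases with *Gm42529*, each on the other strand. *Gm42531*, which lies within *Brca2* on the same strand without sharing an exon, was at a mean of 0.348 FPKM in Ctrl and 0.893 in cKO (log2 fold change 0.48, limma unadjusted p = 0.0466, adjusted p = 0.978). It reached the minimum of 0.5 FPKM for testing only through its cKO values, so no weight is placed on this p. Its groups overlapped, with cKO 2 (0.515 FPKM) below Ctrl 3 (0.537). Whether its reads came from RNA of *Brca2* was not tested.

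The libraries lay in much the same order in most members. Ctrl 1 was the lowest Ctrl library in 8 of the 9, all but *Rad54l*, and cKO 2 the lowest cKO library in 8 of the 9, all but *Psmc3ip*. Ctrl 1 was the lowest of all 6 libraries in 6 members, and cKO 1 the highest in 5. The germ-cell list was also lowest in Ctrl 1 and, within cKO, in cKO 2. Counting error, which is only the technical part of the spread, differed in its share between members. In *Dmc1* it averaged 3.43% of the value in Ctrl, against a coefficient of variation of 49.9% between libraries. In *Mnd1* and *Rad54l* it came close to the spread in cKO, at 11.9% against 15.5% and 5.47% against 6.69%.

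**Figure D2:**
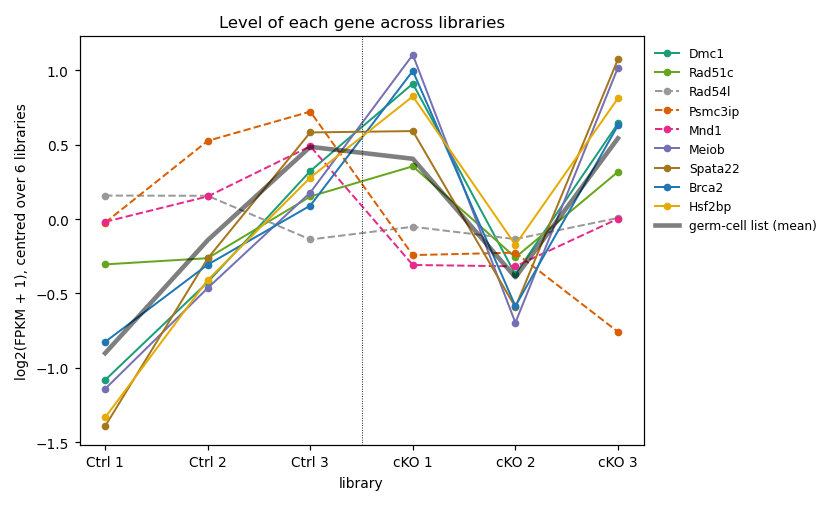
Log2(FPKM + 1) of each gene, centred over the 6 libraries (vertical axis), in each library (horizontal axis). Lines only join the points of a gene, dashed for *Psmc3ip*, *Mnd1* and *Rad54l*, and the thick grey line is the mean of 10 germ-cell genes. In cKO 1 and cKO 3 the germ-cell list is at 0.41 and 0.54, whereas *Psmc3ip* is at -0.24 and -0.76.

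Each member was therefore set against the germ-cell list of the same library, as the difference between its log2(FPKM + 1) and the mean of the list, centred over the 6 libraries. For *Psmc3ip* this difference was 0.88, 0.67 and 0.24 in Ctrl 1, 2 and 3, against -0.65, 0.17 and -1.30 in cKO 1, 2 and 3, with every cKO library below every Ctrl library. For *Dmc1* it was -0.18, -0.28 and -0.16 in Ctrl against 0.51, 0.02 and 0.10 in cKO, and for *Hsf2bp* it was -0.43, -0.27 and -0.21 in Ctrl against 0.42, 0.22 and 0.27 in cKO. In these 2 genes every cKO library lay above every Ctrl library. The groups of the other 6 members overlapped on this measure. Over all genes tested, the groups were separated on this measure for 2.5%, 0.553% with cKO higher and 1.95% with cKO lower.

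With the mean of the germ-cell list as a covariate in limma, 3 members passed the unadjusted limit, 2 lower and 1 higher, against 5.76% of all genes tested, 3.11% lower and 2.65% higher. *Psmc3ip* was lower in cKO by a log2 fold change of -0.90 (standard error 0.25, unadjusted p = 0.0107, adjusted p = 0.686) and *Mnd1* by -0.53 (standard error 0.13, unadjusted p = 0.00707, adjusted p = 0.682). *Hsf2bp* was higher by 0.55 (standard error 0.11, unadjusted p = 0.00244, adjusted p = 0.626). For *Dmc1* the log2 fold change was 0.38 (interval -0.01 to 0.77) and for *Spata22* 0.15 (interval -0.16 to 0.47), and the intervals of *Meiob*, *Brca2*, *Rad51c* and *Rad54l* also held 0. The covariate comes from the same libraries and leaves 3 residual degrees of freedom. It holds *Dazl*, which itself had a higher mean in cKO, with overlapping groups.

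**Figure D3:**
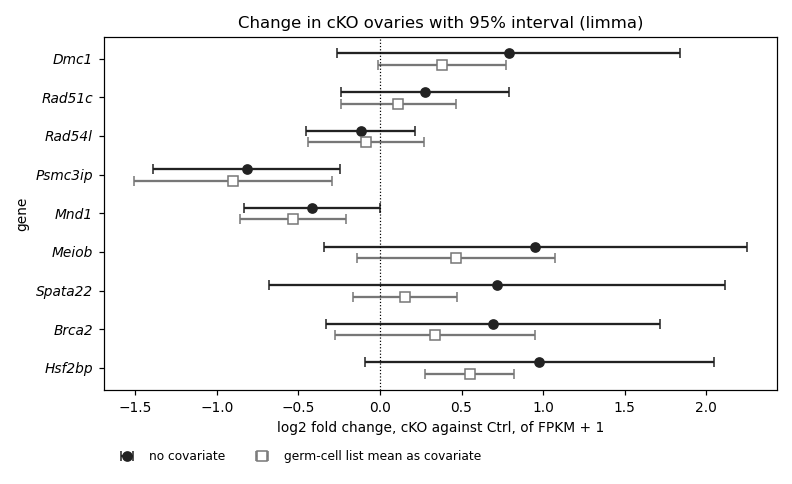
Log2 fold change of FPKM + 1 in cKO against Ctrl ovaries (horizontal axis) with its 95% interval from limma for each gene, without a covariate (filled circles) and with the mean of the germ-cell list as a covariate (open squares). *Psmc3ip* and *Mnd1* lie below 0 in both fits, and the interval of *Hsf2bp* lies above 0 with the covariate.

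Ratios within a library do not depend on its scaling, and they were read for pairs chosen after the values had been seen. *Psmc3ip* stood to *Dmc1* at 0.491, 0.464 and 0.315 in Ctrl 1, 2 and 3 and at 0.0981, 0.248 and 0.0767 in cKO 1, 2 and 3. *Mnd1* stood to *Dmc1* at 0.441, 0.312 and 0.238 in Ctrl and at 0.0828, 0.205 and 0.129 in cKO. In both ratios every cKO library was below every Ctrl library, whereas the ratios of 6.96% of all genes tested to *Dmc1* were separated, 6.54% lower and 0.419% higher in cKO. The ratio of *Psmc3ip* to *Mnd1* was 1.31 ± 0.188 in Ctrl and 0.996 ± 0.349 in cKO (SD, n = 3) and overlapped, with cKO 3 the lowest at 0.594. The ratio of *Brca2* to *Dmc1* stayed between 0.314 and 0.436 in all 6 libraries. That of *Meiob* to *Dmc1* was 0.687 ± 0.0237 in Ctrl and 0.794 ± 0.199 in cKO (SD, n = 3), with overlap.

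**Figure D4:**
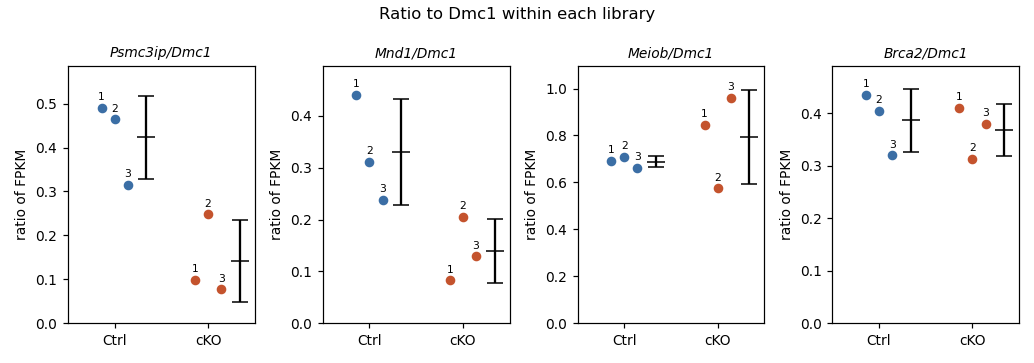
FPKM of *Psmc3ip*, *Mnd1*, *Meiob* and *Brca2* divided by the FPKM of *Dmc1* in the same library (vertical axes, from 0), for Ctrl (blue) and cKO (orange). Numbers are replicates and bars give the mean ± SD (n = 3). The first pair of ratios is lower in every cKO library than in every Ctrl library, whereas *Brca2* stays between 0.314 and 0.436.

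Single libraries decided which of the other members passed. Without cKO 2, 6 members passed the unadjusted limit in limma, against 14.5% of all genes tested: *Psmc3ip*, lower, and *Meiob* (log2 fold change 1.54), *Hsf2bp* (1.31), *Dmc1* (1.17), *Brca2* (1.16) and *Rad51c* (0.47), higher. Other libraries, when left out, lowered these log2 fold changes: without Ctrl 1 they were 0.62 for *Meiob*, 0.55 for *Hsf2bp*, 0.44 for *Dmc1*, 0.45 for *Brca2*, 0.19 for *Rad51c* and 0.20 for *Spata22*, and without cKO 1 that of *Brca2* was 0.37. Without Ctrl 3, *Psmc3ip*, *Hsf2bp* (1.36) and *Dmc1* (1.15) passed, against 6.85% of all genes. *Psmc3ip* alone passed without Ctrl 2 (2.12% of all genes) and without cKO 1 (2.57%). It passed together with *Mnd1* without Ctrl 1 (3.64%) and without cKO 3 (2.47%). *Rad54l* and *Spata22* did not pass with any library left out.

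**Figure D5:**
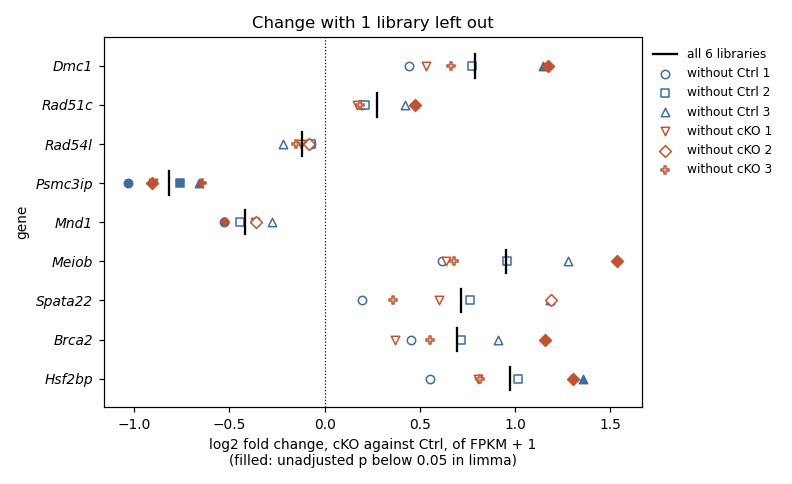
Log2 fold change of FPKM + 1 in cKO against Ctrl (horizontal axis) with each library left out in turn (symbols, blue for a Ctrl and orange for a cKO library left out) and with all 6 (black bars). Filled symbols passed an unadjusted p below 0.05 in limma. All 6 symbols are filled for *Psmc3ip*, and the symbol without cKO 2 is filled for 5 genes above 0.

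The wider machinery of strand exchange was read as a list of 23 partners, among them BRCA1, PALB2 and the SWI5-SFR1 complex. Of the 23 genes, all tested, 0 passed the unadjusted limit in limma, against 4.43% of all genes tested. Under voom 1 (*Sfr1*) passed, against 4.21%. The median log2 fold change in limma was 0.014. The partners with the highest mean level were *Sfr1*, *Swi5* and *Fignl1*. *Sfr1* was at 81.9 ± 8.73 FPKM in Ctrl and 104 ± 13.4 in cKO (SD, n = 3) without overlap, and its log2 fold change was 0.34 (limma, unadjusted p = 0.0558). *Swi5* had a log2 fold change of 0.15 and *Fignl1* of 0.0028.

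The genes nearest in level over the 6 libraries were sought among the 32 members and partners, by the root mean square difference of centred log2(FPKM + 1). On this measure a gene that varies little can also come out near, so the nearest gene need not follow the same course. For *Psmc3ip* the nearest was *Mnd1* (0.36), followed by *Sem1* (0.41), which encodes a small BRCA2-binding protein. For *Mnd1* the nearest were *Helq* (0.24) and *Xrcc2* (0.25). *Helq* did not follow the course of *Mnd1* in cKO 1. There *Helq* was at 6.43 FPKM, above Ctrl 1 (5.20) and Ctrl 2 (5.76), whereas *Mnd1* was below every Ctrl library. For *Dmc1* they were *Brme1*, listed as *4930432K21Rik* (0.12), and *Hsf2bp* (0.15), and *Brme1* was also nearest to *Hsf2bp* (0.12), to whose product its own binds. *Brme1* was at 3.85, 8.11 and 12.1 FPKM in Ctrl and at 17.0, 7.68 and 17.7 in cKO, so that cKO 2 again fell among the Ctrl libraries. The distance of *Psmc3ip* to its nearest gene (0.36) was larger than that of each of the other 8 members. Their distances to the single nearest gene were between 0.090 and 0.24.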

How the data were processed

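RNA of whole ovaries was sequenced in 3 Ctrl and 3 cKO libraries at 16.5 dpc. The labels name ovary as the tissue, although their extraction text names another one. Reads were aligned by the authors to GRCm38 (mm10) with HISAT2 2.0.5 and counted with featureCounts, and the deposited values are FPKM per gene. Neither the annotation release nor a strand setting was found in the labels or methods. Multiplied by gene length and by a library size recovered from the value of a single read, 100% of the values were whole numbers of reads (tolerance 0.05 of a read), and these recovered reads were used for voom only. Scaling factors by median ratio between the deposited libraries were between 0.996 and 1.01.

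Log2(FPKM + 1) of the 17180 genes at or above a mean of 0.5 FPKM was compared between cKO and Ctrl with limma 3.58.1 in R 4.3.3, with an intensity trend and no covariate. Two-sided p-values were read at an unadjusted limit of 0.05, as in the study, and after Benjamini-Hochberg adjustment over all genes tested. An exact permutation test was run for each member. Gene coordinates are those of the table, and exon overlaps come from GENCODE M21 (GRCm38), in which 98.1% of the genes have the same start and end. *Meiob* and *Hsf2bp* do not. Promoter sequences come from RefSeq (GRCm38.p6). Members and gene lists were chosen with earlier results of these data known, and the letter patterns with the expression results known.

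Named genes are the members, *Srsf1*, genes that overlap a member, and listed genes past the limit or among the 3 with the highest level. The genes nearest in centred level and marker genes of lists described are named as well. The alternatives were other pseudocounts, minimum levels, scalings and variance models, voom, the replicate number as a block, a germ-cell covariate and each library left out in turn. Tables and plots were made in Python 3.11.15. Protein sequences and splicing were not analysed here, and the values of 1 partner gene are not reported here.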

Additional observations from a re-analysis of the deposited data

How the results depend on the processing

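*Psmc3ip* passed the unadjusted limit under all 16 alternatives, and no member changed direction under any of them. The number of members past the limit, 2 with all libraries, was 1 (*Psmc3ip* alone) without a minimum FPKM, under median-ratio scaling, quantile normalization and voom and without an intensity trend, where *Mnd1* was lost and between 3.94% and 4.5% of all genes passed, and between 1 and 6 with a library left out. Among the 23 partners, 0 passed in the main comparison, where 4.43% of all genes passed. Under median-ratio scaling, quantile normalization, voom and the germ-cell covariate 1 passed each time, where between 4.21% and 5.76% of all genes passed. With a library left out, between 0 and 5 passed, the most without cKO 2, where 14.5% of all genes passed. Over all genes, 761 passed, 1331 of 33797 without a minimum FPKM, and between 364 and 2493 with a library left out, fewest without Ctrl 2 and most without cKO 2. No pairing of samples by replicate number was found in the labels or methods. Deviations of same-numbered libraries from their group means correlated at -0.39, -0.030 and 0.12 across genes. Deviations from a mean of 3 are tied to each other, so these values cannot decide whether samples shared a litter or a preparation. With the replicate block, 2 members, 0 partners and 681 genes passed. With 3 libraries a group and within-group coefficients of variation up to 68.0% (*Spata22* in Ctrl), intervals of the varied members span more than 2 units of log2.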

Other observations

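The genes that act before strand exchange, in end resection and as RPA, form a list of 11. Of these, 0 passed the unadjusted limit in limma with all libraries, against 4.43% of all genes tested. Under voom 0 passed, against 4.21%. Under quantile normalization 1 passed, *Rpa1*, lower in cKO, against 4.42% of all genes tested. Without Ctrl 3, *Rpa1* and *Dna2* passed, lower, where 6.85% of all genes passed, 3.66% lower. Without cKO 2, 3 genes passed, higher (*Atm*, *Mre11a* and *Rbbp8*), where 14.5% of all genes passed, 8.48% higher. In limma with all libraries the median log2 fold change of the list was 0.022. *Rpa3*, *Rpa2* and *Rbbp8* had the highest mean levels. *Rpa2*, a subunit of RPA, was at 21.1 ± 3.17 FPKM in Ctrl and 21.9 ± 2.25 in cKO (SD, n = 3), and *Rpa3*, another subunit, was at 26.3 ± 1.68 and 26.4 ± 0.329. *Rpa1*, the large subunit, was named after its values were seen, as the 1 gene of the 11 whose groups did not overlap, against 8.68% of all genes tested. It was at 23.1, 21.4 and 16.6 FPKM in Ctrl and at 16.4, 16.1 and 15.2 in cKO, for a log2 fold change of -0.33 (limma, unadjusted p = 0.0602, adjusted p = 0.978).

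A list of 12 genes of proliferating cells summed to between 337 and 645 FPKM in Ctrl and between 314 and 423 in cKO, highest in Ctrl 1. In limma 0 passed the limit, against 4.43% of all genes tested. Under voom and under quantile normalization 1 passed (*Aurkb*, lower), against 4.21% and 4.42% of all genes tested. Without Ctrl 3, 7 passed, all lower, where 6.85% of all genes passed, 3.66% lower. There were 31 tested genes in 6 further marker lists (stroma, endothelium, red blood cells, immune cells, mesonephros and adrenal steroid cells). Of these 1 passed, against 4.43% of all genes tested: the embryonic globin gene *Hbb-y*, which was higher in cKO. The other 6 of the 7 red blood cell genes had a negative log2 fold change, and the median of the list was -0.75. The list summed to 22981, 7800 and 4857 FPKM in Ctrl 1, 2 and 3, against 1697, 10412 and 9831 in cKO 1, 2 and 3, highest in Ctrl 1 and lowest in cKO 1. Its part in the differences of the members was not tested.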
